A study of Homo sapiens with 24 samples.

Results

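Genes with a LINC symbol code for long intergenic noncoding RNAs, transcripts that are not translated into a known protein and that lie between protein-coding genes. The *LINC* genes examined here are those with a probe named by a RefSeq transcript and whose signal was clearly above background throughout at least 1 of 6 groups of U251 cells, that is on each of its 4 arrays. By this rule, 278 *LINC* genes were expressed, out of 1650 with a measured probe on the array, among 14235 expressed genes with a symbol. Antisense genes, whose symbols end in AS and a number, were left out. The rule used the detection flags of the arrays, so that being expressed is not a finding, and a gene that passed only in the group where it was high had to differ between groups. For this reason the 155 members above background on all 24 arrays are given beside all 278.

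U251 is an established human glioblastoma cell line. G-1 is a small-molecule agonist of GPER, the G protein-coupled estrogen receptor. The cells were exposed to the vehicle DMSO, to G-1 at its IC50 in these cells or to 1 µM G-1, for 24 h or for 72 h, which makes 6 groups of 4 arrays. The replicates are described as independent experiments, and no group is labelled with a genetic change. Because each array measures the RNA of many cells together, fewer cells that make a transcript and less of it per cell cannot be told apart.

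Transcripts of this class are mostly made by RNA polymerase II, capped, spliced and polyadenylated like mRNAs, and many of them are kept in the nucleus or degraded there by the RNA exosome. They are usually less abundant than mRNAs and more restricted to certain cell types and conditions. Some act as scaffolds for proteins at chromatin or bind microRNAs and proteins in the cytoplasm, and for most of them no function is known.

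A promoter sequence was found for 195 of the 278 members in RefSeq (GRCh38.p14), running from 250 bases before the transcript start to 50 bases after it. The 6 shown here belong to members that changed at 1 µM G-1 for 72 h, *LINC02454* and *LINC02595* among those that rose and *LINC02593*, *LINC01778*, *LINC02384* and *LINC00930* among those that fell, and they show how different these start regions are in CpG content and in common promoter motifs. The capitals mark the letters of a CCAAT box (CCAAT), a GC box (GGGCGG) or an AP-1 motif (TGACTCA) on either strand. A TATA box (TATAAA) and a cAMP response element (TGACGTCA) were searched as well, on both strands, and neither was found in these 6. The windows are chr12:65602619-65602918 (plus strand), chrX:45851441-45851740 (minus strand), chr1:919643-919942 (minus strand), chr1:30824402-30824701 (plus strand), chr12:68451435-68451734 (minus strand) and chr15:92572214-92572513 (minus strand), each printed 5′ to 3′ along the gene.
LINC02454: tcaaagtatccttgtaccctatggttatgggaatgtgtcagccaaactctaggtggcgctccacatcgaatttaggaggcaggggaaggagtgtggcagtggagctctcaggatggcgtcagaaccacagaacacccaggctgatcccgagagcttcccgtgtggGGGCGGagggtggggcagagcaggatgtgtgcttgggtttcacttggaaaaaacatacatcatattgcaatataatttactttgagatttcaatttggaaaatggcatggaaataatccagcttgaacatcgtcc
LINC02595: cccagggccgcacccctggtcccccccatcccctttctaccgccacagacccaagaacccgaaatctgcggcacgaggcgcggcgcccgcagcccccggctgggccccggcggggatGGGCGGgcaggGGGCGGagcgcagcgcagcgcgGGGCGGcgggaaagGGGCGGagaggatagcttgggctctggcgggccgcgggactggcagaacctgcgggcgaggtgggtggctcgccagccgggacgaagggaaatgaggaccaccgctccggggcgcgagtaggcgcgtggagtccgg
LINC02593: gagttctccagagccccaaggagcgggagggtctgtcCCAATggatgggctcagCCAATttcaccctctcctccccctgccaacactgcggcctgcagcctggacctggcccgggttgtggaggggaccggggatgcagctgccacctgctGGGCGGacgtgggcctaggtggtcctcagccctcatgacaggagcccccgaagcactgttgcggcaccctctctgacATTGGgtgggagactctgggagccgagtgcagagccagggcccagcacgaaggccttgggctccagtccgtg
LINC01778: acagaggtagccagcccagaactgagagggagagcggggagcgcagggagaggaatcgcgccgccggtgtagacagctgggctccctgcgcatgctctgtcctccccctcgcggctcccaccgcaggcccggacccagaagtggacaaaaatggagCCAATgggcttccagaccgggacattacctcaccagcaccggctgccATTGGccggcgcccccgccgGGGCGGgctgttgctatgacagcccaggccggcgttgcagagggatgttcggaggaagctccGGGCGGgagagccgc
LINC02384: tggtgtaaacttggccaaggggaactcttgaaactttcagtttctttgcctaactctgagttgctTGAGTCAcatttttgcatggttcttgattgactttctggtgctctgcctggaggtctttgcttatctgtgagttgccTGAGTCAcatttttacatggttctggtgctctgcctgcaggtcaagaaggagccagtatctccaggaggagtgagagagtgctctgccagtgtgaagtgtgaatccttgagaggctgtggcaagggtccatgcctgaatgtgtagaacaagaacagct
LINC00930: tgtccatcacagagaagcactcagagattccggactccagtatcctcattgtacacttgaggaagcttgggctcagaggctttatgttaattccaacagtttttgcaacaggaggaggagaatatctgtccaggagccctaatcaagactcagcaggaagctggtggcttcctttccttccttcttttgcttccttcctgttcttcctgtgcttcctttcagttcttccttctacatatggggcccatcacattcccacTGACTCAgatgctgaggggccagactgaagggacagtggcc

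The window of *LINC02595* held 36 CpG dinucleotides and 4 GC boxes, and that of *LINC02384* held no CpG (0) and 2 AP-1 motifs. *LINC02593* had 3 CCAAT boxes and 1 GC box, *LINC01778* 2 of each, *LINC02454* 1 GC box and *LINC00930* 1 AP-1 motif. AP-1 motifs were found in 9.74% of the 195 member promoters and in 4.92% of all 27305 promoters of this length, CCAAT boxes in 39.5% and 35.7%, GC boxes in 41.5% and 44.6%, TATA boxes in 7.18% and 12.0% and cAMP response elements in 1.03% and 1.98%. The median number of CpG dinucleotides was 8 in the members and 14 in all promoters. Among the 42 members called lower at 72 h with a sequence, 52.4% held a CCAAT box and 9.52% an AP-1 motif, and among the 8 called higher 25% held a CCAAT box and 12.5% an AP-1 motif. These shares describe letters in a window, not binding.

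Signals are given as log2 intensity after subtraction of the array's 75th percentile, and a level is compared between groups for the same probe only. The members were dim, with quartiles of −2.52, −1.32 and 0.576 over the genes' mean log2 signals, against −2.03, −0.786 and 0.877 for the 953 other expressed long noncoding RNAs and 0.479, 2.54 and 4.36 for the 12515 protein-coding genes. These distributions are described and not compared gene by gene. Of the members, 63.3% lay among the dimmest 20% of all expressed genes, and none was saturated on any array (0 of 278). The 8 brightest were *LINC01356*, *LINC00869*, *LINC01444*, *LINC00673*, *LINC00504*, *LINC00674*, *LINC01881* and *LINC00467*. In the annotation, 277 of the 278 were classed as long noncoding RNA, 25 overlapped a protein-coding gene in spite of their name, and 58 more lay within 10 kb of one. At the edge of the rule, 26 members passed in exactly 1 group and had a median log2 signal of −3.095, and 23 *LINC* genes that missed it with 3 of 4 arrays in their best group had a median of −3.305. Of the 1372 *LINC* genes outside the rule, 1214 were above background on no array.

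The arrays fell into 2 scan sessions. All 8 arrays of 1 µM G-1 lay on slide 3 and were scanned in session 2, whereas the DMSO and IC50 arrays shared slides 1 and 2 and session 1, so that a difference between 1 µM G-1 and DMSO cannot be told apart from one between slides. Local background was 44 to 48 in session 1 and 48 to 58 in session 2, and 41.11% to 44.53% and 38.04% to 40.72% of the spots were well above background. The glioma and astroglial markers *GFAP*, *S100B*, *VIM*, *NES*, *SOX2*, *SOX9*, *FABP7* and *CD44* (8 of 9) were above background on all 24 arrays and *OLIG2* on none (0). None of 3 myeloid markers with a probe was above background on any array (0). Of 4 neuronal markers 2 were above on all 24 arrays, *RBFOX3* and *SNAP25*, and 2 on none, *SYP* and *STMN2*, and the summed signal of the 4 was 2.70 to 3.29 on a log2 scale in DMSO and 1.59 to 1.80 at 1 µM G-1, both at 72 h. The corresponding ranges were 10.6 to 10.8 and 10.1 to 10.4 for the 9 glioma and astroglial markers. They were −0.118 to 0.0585 and −1.69 to −1.01 for the 3 endothelial markers. Of these, *VWF* was above background on 23 arrays, *CDH5* on 16 and *PECAM1* on none. For the 3 epithelial markers they were −1.39 to −0.743 and −2.48 to −2.13 (*KRT19* on 21 arrays, *EPCAM* and *CDH1* on none). The part of these markers in the results on *LINC* genes was not tested.

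The flags that chose the members are given here as a description, with no test, since most of the groups that could bring a gene in were DMSO or IC50. In DMSO, the lowest, median and highest counts per array were 258, 265 and 267 of 278 at 24 h and 247, 259.5 and 265 at 72 h. At the IC50 of G-1 they were 260, 269.5 and 275 at 24 h and 261, 266.5 and 271 at 72 h. At 1 µM G-1 they were 195, 206 and 216 at 24 h and 182, 202.5 and 218 at 72 h. Each array at 1 µM had fewer detected *LINC* genes than each array of the other groups. Over all 14235 expressed genes, chosen by the same flags, 92.5% to 95.9% were above background on an array of the 1 µM groups and 97.5% to 99.6% on the others, and over the 953 other long noncoding RNAs 76.0% to 87.6% and 93.5% to 99.0%. There were 44 members at 24 h and 43 at 72 h that no array of the 1 µM group detected, against 0 and 4 in DMSO and 1 and 1 at the IC50. The lowest log2 signal that counted as above background was −3.716 to −3.107 on the arrays of session 1 and −3.065 to −2.483 on those of session 2, so that the lower count at 1 µM G-1 came with a higher limit of detection, whose part in it was not tested.

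**Figure D1:**
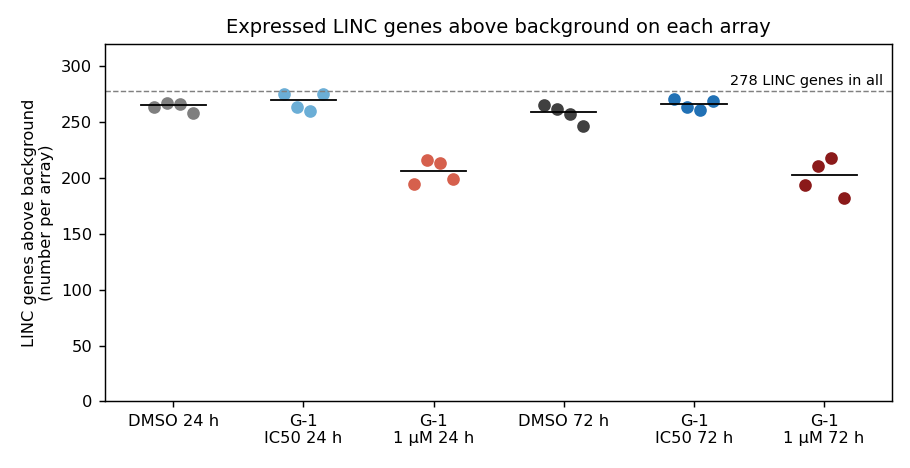
Number of the 278 expressed *LINC* genes above background on each array (vertical axis, number of genes) in the 6 groups (horizontal axis), 1 point per array with the group median as a bar. The arrays of 1 µM G-1 lie between 182 and 218 and those of the other groups between 247 and 275.

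At the IC50 of G-1, no *LINC* gene was called by its brightest probe. With limma's moderated test and Benjamini-Hochberg adjustment over 22970 probes, 0 members were called at an adjusted p under 0.05 and |FC| above 2 at 24 h, against 0.0632% of all 14235 genes, and 12 had an unadjusted p under 0.05. After 72 h, 0 members were called, against 0.112% of all genes, and 29 had an unadjusted p under 0.05. The one member with an adjusted p under 0.05 was *LINC01186*, which was chosen by this value. Its log2 signals at 72 h were 0.81, 0.84, 0.83 and 0.95 in DMSO and 0.33, 0.30, 0.24 and 0.22 at the IC50. The 4 arrays of the IC50 all lay below the 4 of DMSO (log2 fold change −0.58 ± 0.09 (SE), adjusted p = 0.00176). The value was −0.56 (adjusted p = 0.00307) with the slide as a block. A dimmer probe of *LINC02384*, also chosen by its value, was above background on no IC50 array at 72 h (0 of 4) and was at least 2.12-fold lower there (adjusted p = 0.0425), with a fitted log2 fold change of −0.40 with normexp. The brightest probe of *LINC02384*, which was not called, gave −1.193, −1.672, −1.802 and −1.61 in DMSO at 72 h. At the IC50 for 72 h it gave −2.164, −2.238, −2.275 and −1.994. For *LINC01186* at 1 µM for 72 h the difference was −0.01 (adjusted p = 0.92).

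Among vehicle arrays alone, 1 member differed between 72 h and 24 h, against 0.169% of all genes, and 48 had an unadjusted p under 0.05. *LINC01447* gave −2.48, −2.66, −1.60 and −2.08 at 24 h and −3.61, −4.06, −3.37 and −3.31 at 72 h in DMSO. All 4 arrays at 72 h lay below those at 24 h and below background, so that it was at least 2.09-fold lower at 72 h (adjusted p = 0.0356). The call was lost under several alternatives, among them the slide as a block.

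After 24 h of 1 µM G-1, *LINC00707* was called higher and *LINC00967* and *LINC01258* lower among the members detected on every array. Of the 278 members, 1 was called higher (0.36%) and 23 lower (8.27%), against 0.513% and 1.18% of all genes. Among the 155 above background on all 24 arrays, 1 was higher (0.645%) and 2 were lower (1.29%), against 0.394% and 0.244% of the 12704 genes detected on all arrays. The median log2 fold change was −0.242 over all members and −0.15 over the 155, against 0.0361 and 0.0533 for all genes of each kind. Most of the 23 passed the detection filter only through the groups in which they were higher, so that their number supports no difference. With normexp background correction, 0 members were called at 24 h. The median was then −0.017 over all members and −0.078 over the 155, against −0.001 and −0.011 for all genes of each kind. The offset of 50 in this correction shrinks the fold changes of dim probes by construction. A call lost with it, here and below, therefore does not show that the change came from background.

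*LINC00707*, a transcript described mainly in carcinomas, had log2 signals of −0.84, −0.36, −0.66 and −0.84 in DMSO and 0.63, 0.45, 0.71 and 0.23 at 1 µM G-1 after 24 h. Each treated array exceeded each control array (log2 fold change 1.18 ± 0.16 (SE), adjusted p = 4.43e-05). *LINC00967* gave 0.69, 0.24, 0.75 and 0.89 in DMSO and −0.72, −0.93, −0.67 and −0.59 at 1 µM, lower on all 4 treated arrays (log2 fold change −1.37 ± 0.21 (SE), adjusted p = 1.11e-04). *LINC01258* gave 0.78, 1.61, 0.81 and 0.99 and 0.17, −0.08, −0.17 and −0.01 (log2 fold change −1.08 ± 0.23 (SE), adjusted p = 0.00175). Without replicate 2 of DMSO 24 h its log2 fold change was −0.89 (adjusted p = 0.00781), under the |FC| of 2. *LINC00967* and *LINC01258* were the 2 members that were called lower at 24 h while above background on all 24 arrays.

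The other 21 members called lower at 24 h were not above background on every array, and 17 of the 23 were above background on no treated array (0 of 4). For a gene that no treated array detected, the fold change is given as a lower bound, the mean of the DMSO arrays against the lowest signal above background on each treated array or the probe's own signal where that was higher. By this bound, 14 of these genes had a value above 1 and 1 a value above 2. The adjusted p beside a bound, here and elsewhere, is limma's for the fitted change, which uses signals below background. The bound itself was not tested, and genes with a bound passed the detection filter through other groups. *LINC00484* was at least 2.08-fold lower (adjusted p = 0.00263), with a mean DMSO signal of −1.66. The bounds were 1.75 for *LINC00607*, 1.66 for *LINC02008*, 1.51 for *LINC02490*, 1.44 for *LINC01647* and 1.41 for *LINC00989* (adjusted p = 0.00401, 0.0309, 0.0453, 0.00153 and 0.00118). The calls of *LINC02490* and *LINC02008* were lost without any of several single arrays, at adjusted p from 0.0587 to 0.193 and from 0.0721 to 0.104. That of *LINC00607* fell under |FC| = 2 without replicate 1 of 1 µM G-1 24 h (log2 fold change −0.92, adjusted p = 0.0171).

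More *LINC* genes were called at 72 h of the 1 µM dose than at 24 h, and more lower than higher, which also held for all genes. Of the 278 members, 15 were called higher (5.4%) and 56 lower (20.1%), against 4.92% and 7.42% of all genes. Of the 56, 25 were above background on no treated array and so passed the detection filter through other groups. For this reason the number over all 278 supports no difference. Among the 155 above background on all 24 arrays, 9 were higher (5.81%) and 19 lower (12.3%), against 4.28% and 5.04% of the 12704 genes. The median log2 fold change was −0.42 over all members and −0.32 over the 155, against 0.0265 and 0.0594 for all genes of each kind. With an adjusted p under 0.05 and no limit on the fold change, 19 of the 155 were higher (12.3%) and 78 lower (50.3%), against 37.4% and 29.4% of the 12704 genes, and 35.2% and 31.0% of all 14235. With normexp background correction the split was 7 higher and 10 lower over all members and 6 higher and 9 lower over the 155, and the median was −0.161 over all members and −0.171 over the 155, against 0.023 and 0.047 for all genes of each kind.

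**Figure D2:**
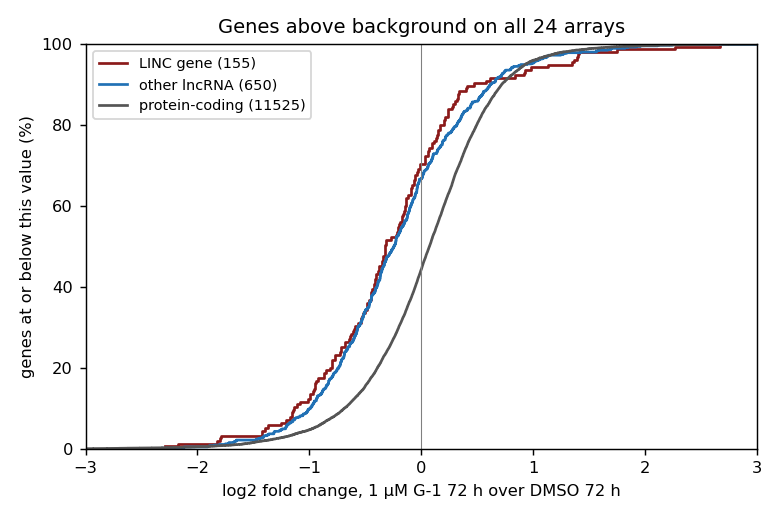
Cumulative share of genes (vertical axis, %) at or below each log2 fold change of 1 µM G-1 over DMSO at 72 h (horizontal axis) for genes above background on all 24 arrays. The line of the 155 *LINC* genes (median −0.32) and that of the 650 other long noncoding RNAs (median −0.24) lie to the left of that of the 11525 protein-coding genes (median 0.07) over most of the range and meet it among the genes that rose.

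Other long noncoding RNAs had lower values as well. Over the 650 of these above background on all arrays, the median log2 fold change at 72 h was −0.24, with 4.77% called higher and 9.85% lower, and over the 11525 protein-coding genes it was 0.07, with 4.08% higher and 4.69% lower. With normexp these medians were −0.158 and 0.061. The median of the *LINC* genes was below 0 in each of 5 classes of brightness, from −0.32 in the dimmest (n = 80) to −0.14 (n = 38), −0.42 (n = 22), −0.17 (n = 11) and −0.32 in the brightest (n = 4), where the medians of all genes were between 0.026 and 0.109. In the dimmest class, 12.5% of the 80 *LINC* genes were called lower and 7.5% higher, against 6.61% and 8.23% of all 2541 genes there. In the other classes, from dim to bright, 13.2%, 18.2%, 0% and 0% were called lower, against 5.55%, 5.39%, 4.6% and 3.03% of all genes. The shares called higher in them were 2.63%, 4.55%, 0% and 25%, against 5.19%, 3.66%, 3.15% and 1.18%. No test compares these lists.

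Among the members that rose at 72 h, *LINC00707* and *LINC02154* had the highest fold changes of those detected on all arrays. *LINC00707* gave −1.36, −0.98, −0.85 and −1.16 in DMSO and 1.47, 1.42, 1.74 and 1.70 at 1 µM G-1. The groups did not overlap, and the fold change was 6.35 (log2 fold change 2.67 ± 0.16 (SE), adjusted p = 3.18e-11). A second probe of *LINC00707* gave a log2 fold change of 1.96 (adjusted p = 8.73e-09). *LINC02154* gave −0.55, −0.21, −0.78 and −0.31 in DMSO and 2.03, 1.93, 1.69 and 1.55 at 1 µM. The lowest treated array was above the highest control array by more than the spread within either group (log2 fold change 2.26 ± 0.19 (SE), adjusted p = 3.35e-09), whereas at 24 h the log2 fold change was 0.05 (adjusted p = 0.866).

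*LINC01444*, one of the 8 brightest members, gave 4.80, 4.93, 4.68 and 4.78 in DMSO and 6.38, 6.40, 5.97 and 6.04 at 1 µM G-1 for 72 h. It was higher on every treated array (log2 fold change 1.40 ± 0.12 (SE), adjusted p = 2.61e-09). *LINC00632*, whose locus also gives rise to the circular RNA CDR1as, gave 1.66, 1.75, 2.19 and 2.14 in DMSO and 3.41, 3.29, 3.38 and 3.24 at 1 µM, with no overlap (log2 fold change 1.39 ± 0.14 (SE), adjusted p = 2.63e-08), and the circular form is not measured here. Its second probe had a log2 fold change of 1.24. *LINC01291* rose from −0.34, −0.04, 0.21 and 0.17 to 1.70, 1.70, 1.80 and 1.78 (log2 fold change 1.75 ± 0.12 (SE), adjusted p = 1.74e-10). The groups of *LINC01291* did not overlap either. *LINC02595*, *LINC02709*, *LINC02104* and *LINC01224* were higher by 1.41, 1.36, 1.35 and 1.14 on the log2 scale (adjusted p = 5.75e-07, 1.71e-07, 7.71e-10 and 4.98e-05), and with these the 9 members that were higher and detected on all arrays are complete. *LINC01711* and *LINC00316*, detected on all 4 arrays of both groups, rose by 1.65 and 1.65 (adjusted p = 3.09e-04 and 6.82e-04). The calls of *LINC02595*, *LINC02709*, *LINC01224*, *LINC01711* and *LINC00316* were lost with normexp background correction.

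*LINC00520* and *LINC02454* were detected on all 4 arrays of 1 µM G-1 at 72 h and on 1 and 0 of 4 DMSO arrays, and passed the detection filter through the group in which they were high. *LINC00520*, described in several carcinomas, gave −3.84, −2.38, −3.15 and −3.58 in DMSO, above background on 1 of 4 arrays, and 0.56, 0.67, 0.15 and 0.13 at 1 µM, above background on all 4. All treated arrays were far above all control arrays (log2 fold change 3.62 ± 0.37 (SE), adjusted p = 4.17e-08), and a second probe gave 3.26 (adjusted p = 2.30e-08). Because 3 of its DMSO arrays were not above background, the size rests on signals near background, and with normexp it was 1.53. At 24 h its log2 fold change was −0.74 (adjusted p = 0.134). *LINC02454*, whose promoter is printed above, was above background on no DMSO array (0 of 4) and on all 4 at 1 µM, where it gave −0.26, −0.75, −0.59 and −0.74. Against the limit of detection it was at least 6.03-fold higher (adjusted p = 1.66e-08), a call that was lost with normexp background correction. The other 2 called higher, *LINC01204* and *LINC00184*, which were detected on 3 and 2 of 4 DMSO arrays, had log2 fold changes of 2.10 and 1.35 (adjusted p = 7.32e-07 and 0.00705), were named after their values were seen and were not called with normexp.

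**Figure D3:**
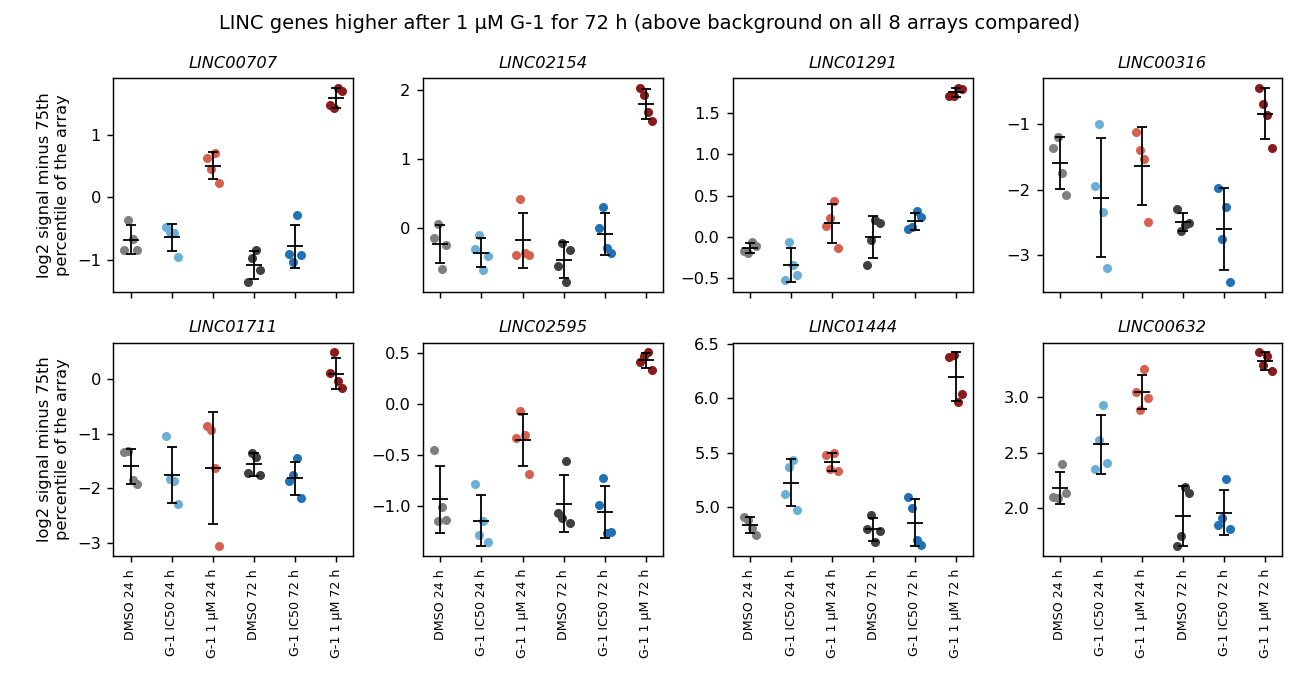
Log2 signal of *LINC* genes that were higher at 72 h of 1 µM G-1, after subtraction of the array's 75th percentile (vertical axis), in the 6 groups (horizontal axis), 1 panel per gene. Points are arrays, and horizontal marks with bars are group means ± SD (n = 4). The panels show the 8 called genes with the highest fold changes among those above background on all 8 arrays compared, and in each of them the mean at 1 µM G-1 for 72 h is the highest of the 6.

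The members that fell at 72 h included, among those detected on all arrays, *LINC00930*, *LINC00475*, *LINC02984* and *LINC02593*, whose order changed with normexp (log2 fold changes of −1.55, −1.32, −1.61 and −1.41). *LINC00930* gave 1.33, 1.37, 1.23 and 1.57 in DMSO and −0.92, −0.83, −1.11 and −0.80 at 1 µM G-1. The groups were apart by more than their spread, with a fold change of 4.9 (log2 fold change −2.29 ± 0.15 (SE), adjusted p = 1.05e-10). *LINC00475* gave 1.04, 0.88, 0.90 and 0.88 and −1.27, −1.29, −1.42 and −1.01 (log2 fold change −2.17 ± 0.10 (SE), adjusted p = 1.97e-12). All 4 treated arrays lay below all 4 controls, whereas at the IC50 for 72 h the log2 fold change was −0.39 (adjusted p = 0.101).

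*LINC02984* gave 3.52, 3.58, 3.19 and 3.39 in DMSO and 1.60, 1.54, 1.60 and 1.73 at 1 µM for 72 h (log2 fold change −1.80 ± 0.09 (SE), adjusted p = 2.60e-12). *LINC02593* gave 1.94, 1.91, 2.04 and 1.70 and 0.27, 0.16, 0.19 and −0.33 (log2 fold change −1.83 ± 0.11 (SE), adjusted p = 2.19e-11). In both genes all treated arrays were below all controls. *LINC00967*, already lower at 24 h, gave 0.25, 0.78, 0.41 and 0.79 and −0.97, −1.39, −1.38 and −1.19 at 72 h (log2 fold change −1.79 ± 0.21 (SE), adjusted p = 2.33e-07). *LINC01535*, *LINC01778*, *LINC02875* and *LINC01258* fell, with log2 fold changes of −1.43, −1.42, −1.40 and −1.37 (adjusted p = 0.00267, 2.64e-09, 1.99e-08 and 2.54e-05). With normexp background correction the calls of *LINC01778* and *LINC01258* were lost.

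Of the 56 called lower at 72 h, 19 were above background on all 4 treated arrays and 25 on none. Of these 25, 19 had a lower bound above 1 and 4 above 2. *LINC01914* was at least 3.94-fold lower (adjusted p = 2.60e-12), with DMSO signals of −0.78, −0.73, −0.88 and −0.68 and signals of −2.84, −2.78, −3.04 and −2.73 at 1 µM G-1. *LINC01797*, *LINC02384* and *LINC02453* were at least 2.59-, 2.37- and 2.29-fold lower (adjusted p = 3.01e-04, 1.99e-08 and 7.93e-08), and *LINC00578* and *LINC01376* at least 1.63- and 1.59-fold (adjusted p = 1.21e-06 and 6.17e-05). With normexp background correction none of these 6 was called (0), and *LINC01914* had a log2 fold change of −0.69. *LINC02620*, outside the naming rule and chosen after its values were seen, gave −0.11, −0.10, −0.21 and 0.01 in DMSO and −3.18, −3.06, −2.71 and −4.07 at 1 µM, above background on 1 of 4 treated arrays (log2 fold change −3.15 ± 0.24 (SE), adjusted p = 8.64e-10). With normexp it was −1.10. *LINC01356*, one of the 8 brightest members, lay just under the threshold with a fold change of 1.99 (log2 fold change −0.99 ± 0.18 (SE), adjusted p = 7.10e-05). It passed the threshold with quantile normalization, the 50th percentile, normexp and in 4 fits with 1 array left out, with log2 fold changes down to −1.17.

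**Figure D4:**
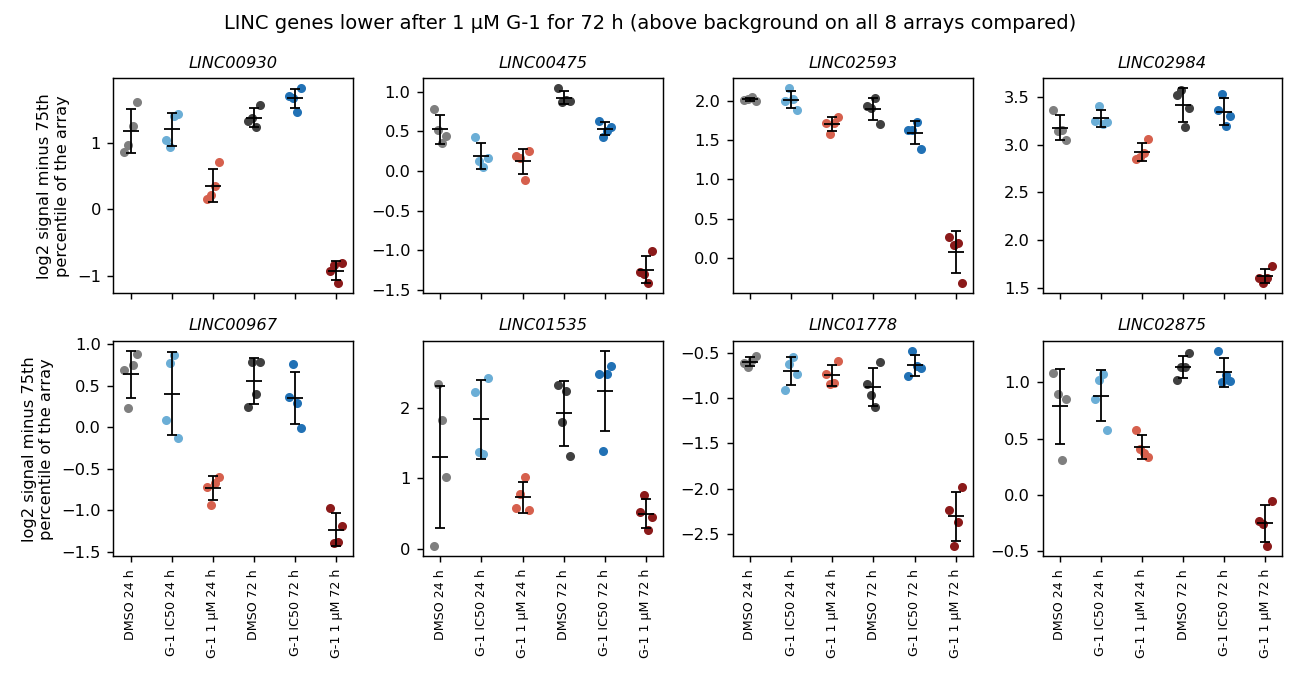
Log2 signal of *LINC* genes that were lower at 72 h of 1 µM G-1, after subtraction of the array's 75th percentile (vertical axis), in the 6 groups (horizontal axis), 1 panel per gene. Points are arrays, and horizontal marks with bars are group means ± SD (n = 4). The panels show the 8 called genes with the strongest decreases among those above background on all 8 arrays compared, and in each of them the mean at 1 µM G-1 for 72 h is the lowest of the 6.

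The response to 1 µM G-1 depended on the duration for a part of the members. The difference between the 72 h and the 24 h effect holds 1 µM arrays of the same slide and session on one side and DMSO arrays of slides 1 and 2 on the other, so that an offset of the session that was the same at both durations drops out of it. In this test, 10 members (3.6%) had a higher effect at 72 h by |FC| above 2 and 16 (5.76%) a lower one, against 2.41% and 3.89% of all genes. Some of these, *LINC00520* and *LINC02454* among them, passed the detection filter through the group in which they were high. For this reason the numbers over all members support no difference. Among the 155 detected on all arrays, 5 were higher (3.23%) and 6 lower (3.87%), against 1.77% and 2.95% of the 12704 genes. The fitted difference of *LINC00520* was 4.35 ± 0.52 (SE) on the log2 scale (adjusted p = 3.64e-06), from signals that were partly below background, and 1.41 with normexp. That of *LINC02154* was 2.21 (adjusted p = 5.07e-06) and 1.77 with normexp, of *LINC00707* 1.49 (5.23e-05) and of *LINC01291* 1.45 (2.87e-06). Among the fallers, *LINC00475* had −1.77 (adjusted p = 6.79e-08), *LINC02984* −1.55 (5.48e-08), *LINC02593* −1.51 (4.98e-07) and *LINC00930* −1.48 (2.95e-05). The call of *LINC00930* was lost with normexp (−0.93). For *LINC00967* it was −0.42 (adjusted p = 0.29) and for *LINC01258* −0.30 (adjusted p = 0.518).

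Side by side, 16 members were called lower at both durations, of which 2 were detected on all arrays, and 1 member, *LINC00707*, was called higher at both. The share of all genes called at both durations was not counted, so that these numbers describe the members only. Lower calls covered 1.18% of all genes at 24 h and 7.42% at 72 h. Of the 56 called lower at 72 h, 54 also had a negative log2 fold change at 24 h, and of the 15 called higher, 12 had a positive one, where 73.0% of all members and 45.0% of all genes were negative at 24 h. Many of the 56 were below background in both 1 µM groups, so that these counts are a description. The 24 h and 72 h comparisons have no arrays in common, but the 1 µM arrays of both lay on slide 3.

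**Figure D5:**
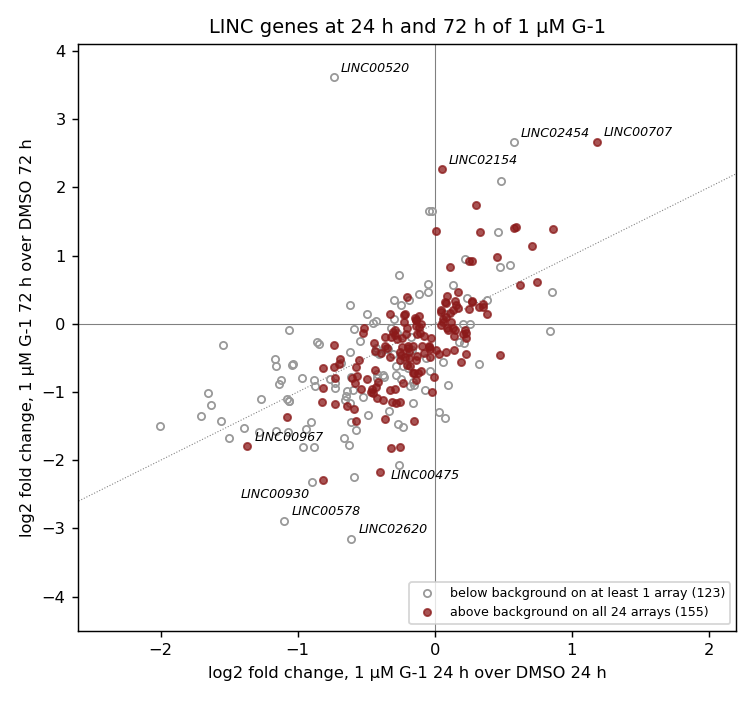
Log2 fold change of each of the 278 *LINC* genes at 1 µM G-1 over DMSO at 24 h (horizontal axis) and at 72 h (vertical axis), with filled points for the 155 genes above background on all 24 arrays and a dotted line of equal change. *LINC00520* (−0.74 and 3.62) and *LINC02154* (0.05 and 2.26) moved at 72 h, whereas *LINC00967* (−1.37 and −1.79) lies near the line.

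Of the members, 69 had several tested probes, 373 probes in all. Among them, 12 were called at 72 h by their brightest probe, 9 of which had another probe called in the same direction, and 0 had probes with significant changes in opposite directions. Calling a gene by any of its probes gave 79 members, 8 more than by the brightest. *LINC00941*, a transcript described in several carcinomas, was the clearest case, chosen after its values were seen. Its brightest probe had a log2 fold change of −0.28 at 72 h (adjusted p = 0.332). The second gave −1.26, −1.53, −0.94 and −1.38 in DMSO and 0.77, 0.74, 0.70 and 0.68 at 1 µM G-1, a log2 fold change of 2.00 (adjusted p = 1.51e-10), and the third one of 2.02 (adjusted p = 1.15e-09). The last had 0.01, so that 2 of 4 probes rose and 2 did not pass the test, and which transcripts each of them reads was not tested.

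Among 20 *LINC* genes listed because roles have been described for them, 15 were expressed and tested. This list and those below were written with earlier results of these data known, so that their counts are a description. At 72 h of 1 µM G-1, 3 were called higher, *LINC00707*, *LINC00520* and *LINC00632*, and 0 lower, against 4.92% and 7.42% of all genes. Of these, *LINC00520* passed the detection filter through the group in which it was high. With an adjusted p under 0.05, 6 were higher and 4 lower, against 35.2% and 31.0% of all genes. The median log2 fold change of the 15 was 0.145. *LINC00467* and *LINC00673*, both among the brightest, had −0.48 (adjusted p = 1.36e-05) and −0.49 (adjusted p = 5.67e-05), less than |FC| = 2. These values are those of the brightest probes. Of the dimmer probes of *LINC00673*, some were also lower on all treated arrays, and others overlapped with DMSO. *LINC01116*, which has been studied in glioma, had 0.17 (adjusted p = 0.0384).

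Of 26 other long noncoding RNAs that carry common names, 22 were tested. Of these, 4 were called higher and 1 lower at 72 h, against 4.92% and 7.42% of all genes, with a median log2 fold change of 0.435. *PVT1*, the neighbour of *MYC*, rose by 1.84 (adjusted p = 5.09e-11), *SNHG1*, a host of small nucleolar RNAs, by 1.58 (5.11e-12), the imprinted *MEG3* by 1.09 (4.85e-06) and *CYTOR* by 1.01 (9.22e-07). *CASC15* fell, with a log2 fold change of −1.04 (adjusted p = 1.67e-06). *NORAD*, which binds Pumilio proteins, had −0.95 (1.13e-07) and *NEAT1*, the scaffold of paraspeckles, −0.88 (1.16e-06), both under the fold threshold. Among genes for the nuclear decay of RNA by the exosome and its adaptors, 0 of 17 tested were called at 72 h, 14 were higher and 0 lower at an adjusted p under 0.05, with a median of 0.394, where 35.2% of all genes were higher and 31.0% lower at that threshold. Of 13 tested genes of the Integrator, a complex that cuts nascent transcripts, 5 were higher and 1 lower at an adjusted p under 0.05, with a median of 0.185. The median of all genes was 0.0265.

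The nearest protein-coding gene was tested for 199 members. Across these pairs, the log2 fold changes at 72 h had a Pearson correlation of 0.0186 and a Spearman correlation of 0.0301, given as a description across genes, which are not independent replicates and come from the same 8 arrays. None of the 11 members called higher with a tested neighbour had a neighbour that was called (0). Of 43 called lower, 2 had a neighbour called in the same direction, *LINC01258* with *KLF3* (−1.01, adjusted p = 1.79e-07) and *LINC01778* with *SDC3* (−1.04, adjusted p = 4.59e-08). In 4 pairs the neighbour was called in the opposite direction, *TRIM7* next to *LINC01962* (1.26), *TMPO* next to *LINC02453* (1.38), *KRT80* next to *LINC02874* (1.65) and *C1GALT1* next to *LINC03016* (1.06). Over all 199 neighbours, 16 were called (8.04%), and the share of all genes was 4.92% higher and 7.42% lower. These pairs were chosen by their calls.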

How the data were processed

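RNA of U251 cells was hybridised to 1-colour Agilent microarrays, 24 arrays in 6 groups of 4. The authors deposited, per spot, intensity values from Agilent Feature Extraction, background-subtracted on each array, with flags for signals well above background. Its version is 10.7.3.1 per the submitters' processing notes and 12.1.1.1 per the file headers. A deposited table of log2 values, set relative to each array's 75th percentile and then centred per probe, served as an alternative. Titles gave the groups, since one label swaps the durations of the IC50 24 h and 1 µM 72 h groups. The labels state 0.1% DMSO, and the study's methods another concentration.

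Log2 intensities, with outlier spots left out and spots of 1 probe averaged, were lowered by the 75th percentile of their array. Probes that were clearly above background throughout 1 or more groups (22970) were fitted with 6 group means over 24 arrays in limma 3.58.1 (R 4.3.3), with Benjamini-Hochberg adjustment over these probes. Each gene was read from its brightest probe and called at an adjusted p under 0.05 and |FC| above 2. Because the replicates of a group are described as independent experiments, p-values measure the spread between these. Symbols came from RefSeq (GRCh38.p14) through probe accessions. The array design follows another build, so no coordinates of probes are given. The number of arrays, 4 per group, limits the precision.

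Named members were, in each comparison, the called ones detected on all arrays of both groups (at most 8 in each direction by fold change), those not detected in 1 group (at most 6, by lower bound), the 8 brightest, those with described roles, and the neighbours of the called ones. The members and lists were chosen with earlier results of these data known. The code was tested on simulated data. Alternatives were quantile and 50th percentile normalization, normexp background correction (offset 50, on median spot signals), other filters on dim probes, the deposited table, fits of the compared arrays alone, an intensity trend, replicate or slide blocks, any probe per gene, no fold threshold, the methods' t-test and leaving out each array.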

Additional observations from a re-analysis of the deposited data

Results flagged for a closer look

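In 300 groups of 4 arrays (50 named members in 6 groups), 16 held 1 array that stood apart from the other 3, where chance gives about 1 in 20. The array that stood apart was the highest in 8 of these and the lowest in 8, and the values are log2 signals relative to the 75th percentile. In DMSO at 24 h, it was the lowest array of *LINC00484* (−2.06) and *LINC01116* (3.50) and the highest of *LINC00632* (2.40) and *LINC01797* (−0.72). In DMSO at 72 h, it was the highest array of *LINC00475* (1.04) and *LINC02595* (−0.56). At the IC50 for 24 h, it was the lowest array of *LINC00941* (−0.50) and the highest of *LINC02104* (0.83) and *LINC02984* (3.41). At the IC50 for 72 h, it was the lowest array of *LINC00173* (−0.27), *LINC01535* (1.39), *LINC01797* (−2.07) and *LINC02008* (−2.64) and the highest of *LINC00460* (0.65). At 1 µM, it was the highest array of *LINC02154* at 24 h (0.42) and the lowest of *LINC00989* at 72 h (−4.64).

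For 20 named members, the effect of 1 µM G-1 differed between 72 h and 24 h in limma's test of the difference, beyond |FC| = 2. The 72 h effect was higher by 4.35 on the log2 scale for *LINC00520* (adjusted p = 3.64e-06), 2.21 for *LINC02154* (5.07e-06), 2.09 for *LINC02454* (0.000171), 1.70 for *LINC00316* (0.0191), 1.67 for *LINC01711* (0.0127), 1.49 for *LINC00707* (5.23e-05), 1.45 for *LINC01291* (2.87e-06), 1.35 for *LINC02709* (8.52e-05) and 1.02 for *LINC02104* (2.67e-05). The difference was −1.82 for *LINC01914* (5.03e-08), −1.79 for *LINC00578* (0.014), −1.77 for *LINC00475* (6.79e-08), −1.55 for *LINC02984* (5.48e-08), −1.51 for *LINC02593* (4.98e-07), −1.48 for *LINC00930* (2.95e-05), −1.42 for *LINC02384* (0.00184), −1.28 for *LINC01376* (0.0147), −1.27 for *LINC01778* (1.12e-05), −1.20 for *LINC02453* (0.000338) and −1.03 for *LINC02875* (0.00035). *LINC02454*, *LINC01914*, *LINC00578*, *LINC02384*, *LINC01376* and *LINC02453* were above background on no array of 1 of the 2 groups at 72 h, so that their fitted differences rest partly on signals near background. With normexp 13 of the 20 were no longer called, and the 7 that were are *LINC00520*, *LINC02154*, *LINC00707*, *LINC01291*, *LINC00475*, *LINC02984* and *LINC02593*. Without replicate 4 of 1 µM G-1 at 72 h, that of *LINC01376* was −0.92.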

How the results depend on the processing

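Dropping the fold threshold raised the counts and normexp background correction lowered them. Normexp was run with an offset of 50 added before the logarithm, which shrinks the fold changes of dim probes by construction. A call lost with it therefore does not show that the change came from background. With normexp, the members called numbered 0 at 24 h of 1 µM G-1 (main value 24), 17 at 72 h (71), 7 for the dependence on duration (26) and 0 for DMSO over time (1), and among members detected on all 24 arrays 0 (3), 15 (28) and 6 (11). Normexp turned *LINC00511* at 72 h from 0.145 to −0.027 and *LINC00665* from −0.061 to 0.038, neither called. Testing only probes above background on all arrays left 3, 28, 11 and 0, since fewer genes were tested. Without a fold threshold there were 88, 174, 65 and 9, and 54, 97 and 42 among members detected on all arrays. The methods' t-test with Benjamini-Hochberg adjustment and |FC| above 2 gave 13 at 24 h. For the IC50 at 72 h, 1 member was called by any probe, 1 without a fold threshold and 1 by the methods' t-test without adjustment, against 0. DMSO over time gave 0 with the 50th percentile, without a filter, with the arrays of the comparison alone and with the slide block, and 2 with the replicate block. With 1 array left out, the counts ranged from 19 to 24 at 24 h, 72 to 77 at 72 h, 24 to 30 for the duration, 0 to 2 for DMSO over time and 0 to 1 for the IC50 at 72 h, and over members detected on all arrays from 2 to 3, 27 to 32 and 10 to 12. *LINC02104* and *LINC02875* fell under the fold threshold of the duration dependence without any of 4 arrays each (log2 0.94 to 0.98 and −0.99 to −0.87).

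Same-numbered arrays of different groups had correlations of their deviations from the group means between −0.325 and 0.530 (median 0.116), above 0.1 in 33 of 60 pairs. For arrays of other numbers the median was −0.042, with 38 of 180 pairs above 0.1. Of 24 arrays, 13 matched their own number best. The numbers were not taken as pairs, and the replicate block left 24, 71 and 26 members called, all 24 and all 71 of them shared at 24 h and 72 h. No scaling moved the median of all genes beyond −0.05 to 0.037, whereas normexp moved that of the members from −0.242 to −0.017 at 24 h and from −0.422 to −0.161 at 72 h. The offset of normexp shrinks dim fold changes by construction, so that this shift does not show what part of the members' median came from background.

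The 1 µM arrays shared a slide and session that no control array had, which cannot be told apart from the dose. Most members were dim, and many were below background in 1 group, where only a bound can be given.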
